A study of Mus musculus with 60 samples.

Results

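Ascorbic acid together with the GSK3 inhibitor CHIR-99021, a mixture abbreviated VC, was compared with no addition in D/KO fibroblasts after 2 days of doxycycline. The groups were assigned from the sample labels, and the comparison held 6 of the 60 libraries of the series, 3 libraries without VC and 3 with VC. D/KO cells were tail tip fibroblasts of the genotype 4FJ_ERCC1_(d/-), taken from a male mouse at 8 weeks, which carry a null and a truncated allele of the DNA repair gene Ercc1. The 4Fj cassette places Oct4, Sox2, Klf4 and c-Myc (OSKM) at the Col1a1 locus under a tetracycline operator, with the M2-rtTA transactivator at the Rosa26 locus. Both groups therefore carried the Ercc1 alleles and the cassette, both received doxycycline at 2 µg/ml for 2 days, and both were kept at 3% O2. Only the VC group also received ascorbic acid at 50 µg/ml and the inhibitor at 3 µM. No group used here received ascorbic acid or the inhibitor alone, so their separate effects cannot be told apart. The cells were a single line, and whether the 3 libraries of a group came from separate cultures is not stated, so the p-values here measure the spread between libraries, which may be technical. The response was set beside 3 further comparisons of 6 libraries each: VC without doxycycline (day 0) in D/KO cells, VC at day 4 in D/KO cells, and VC at day 2 in WT cells. How long the day 0 cells were kept in VC is not stated, so the day 0 comparison may differ in VC exposure and time in culture as well as in doxycycline, and these cannot be told apart. WT cells were tail tip fibroblasts of the genotype 4FJ_(+/-)_OCT4-GFP from a female at 22 weeks, so that genotype, sex, age and cell line changed together in the comparison with WT.

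GSK3 phosphorylates beta-catenin and marks it for destruction. An inhibitor of the kinase lets beta-catenin accumulate and pair with TCF/LEF factors, which switch on the feedback genes of the Wnt pathway. Ascorbic acid keeps iron in its reduced form for dioxygenases, among them the prolyl hydroxylases that mature collagen and the TET and KDM enzymes that remove methyl groups from DNA and histones. Early in reprogramming, fibroblasts are known to lose contractile and matrix genes, to divide faster and to gain epithelial genes before the pluripotency network switches on.

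The 6 libraries held 17068097 to 18135608 counts assigned to genes. The defining fibroblast genes, among them Col1a1, Col1a2, Dcn and Pdgfrb, were all detected (9 of 9 markers), with a summed level of 51306 to 53548 CPM (counts scaled to library size by TMM) without VC and 68801 to 69194 CPM with VC. Any pair of libraries from the same group differed by 0.49 to 0.55 (root mean square of log2 CPM over the tested genes, 6 pairs) and any pair from different groups by 0.77 to 0.81 (9 pairs). Markers of other cells were also present. The 8 endothelial markers summed to 603 to 689 CPM without VC and 239 to 280 CPM with VC, and their members are given below with the genes they moved with. In bulk RNA, fewer cells of a type and less RNA per cell cannot be told apart.

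With VC, 1753 genes were higher (11.1% of 15832 tested) and 2252 were lower (14.2%) at an adjusted p under 0.05 in edgeR's quasi-likelihood F-test. Of these, 457 higher and 791 lower genes changed at least 2-fold. The median log2 fold change of all tested genes was 0.00, and the quartiles were -0.33 and 0.29. Leaving out a single library gave 1337 to 1486 higher and 1808 to 1916 lower genes. Among the gene lists, most ribosome assembly factors rose, and most contractile and ATF4 target genes fell. The values behind these and further lists are set out in the order of the pathways that VC acts on, then the reprogramming genes, then the fibroblast programme.

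**Figure D1:**
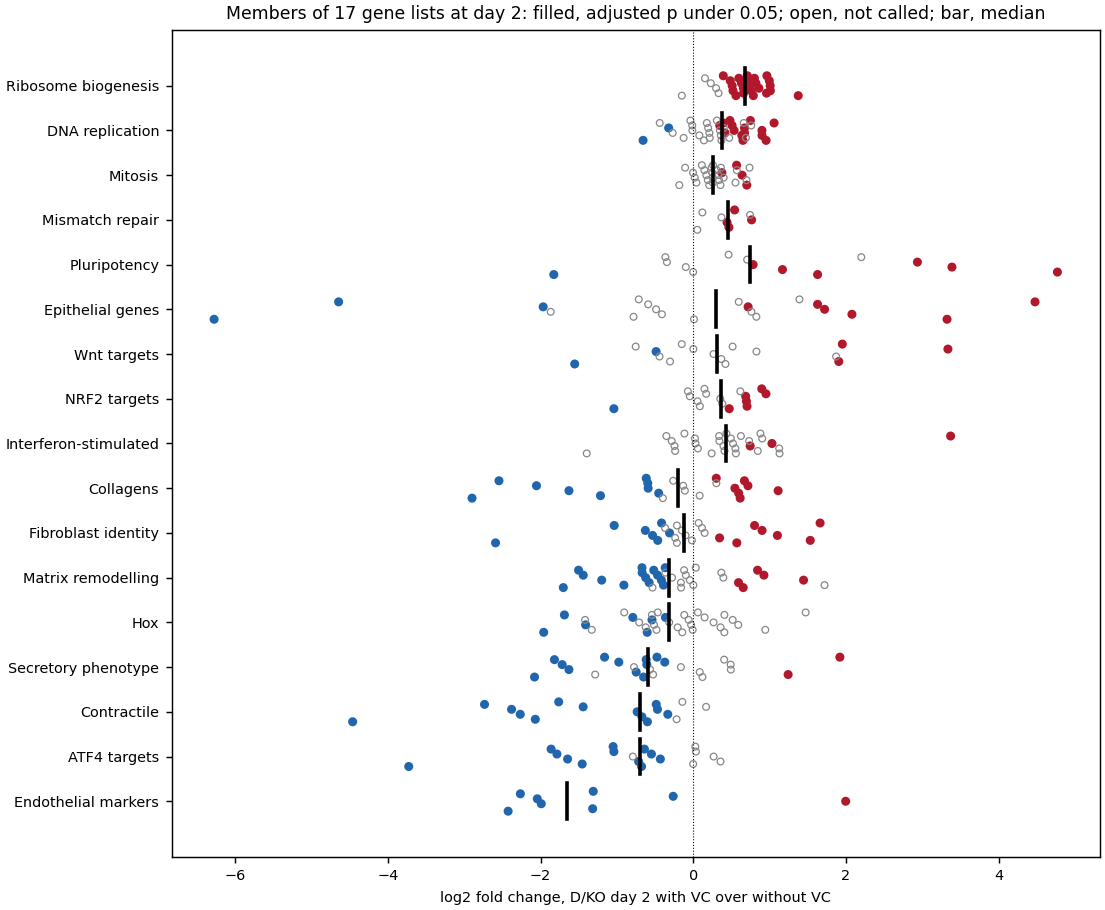
Log2 fold change with VC at day 2 in D/KO cells (horizontal axis) for each tested member of 17 gene lists (rows). Filled points are genes past an adjusted p of 0.05 in edgeR, open points are the others and the bar is the list's median. In the ribosome biogenesis row 23 of 28 points are filled and lie right of 0, and in the contractile row 13 of 16 are filled and lie left of 0.

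Among Wnt feedback genes, Axin2, the scaffold protein that returns beta-catenin to its destruction complex and the standard readout of the pathway, lies at chr11:108811175-108841609 (GRCm39, plus strand). It was measured at 0.978, 0.754 and 1.25 CPM without VC and 7.87, 9.06 and 13.5 CPM with VC. The groups did not overlap, and the level was 10.1-fold higher with VC (log2 fold change 3.34 ± 0.29 SE, adjusted p = 4.3e-11). Tcf7, which encodes the TCF1 partner of beta-catenin, stood at 5.23, 4.87 and 6.71 CPM without VC and 19.1, 20.4 and 25.6 CPM with VC and rose in all 3 VC libraries (log2 fold change 1.95 ± 0.25 SE, adjusted p = 1.9e-07). The membrane antagonist Apcdd1 stood at 68.8, 66.7 and 63.2 CPM without VC and 278, 222 and 244 CPM with VC and rose (log2 fold change 1.91 ± 0.12 SE, adjusted p = 1.3e-14). Nkd1, a cytoplasmic inhibitor and also a usual feedback target, went the other way. It was measured at 2.13, 2.21 and 1.80 CPM without VC and 1.10, 0.118 and 0.839 CPM with VC and fell (log2 fold change -1.55 ± 0.38 SE, adjusted p = 0.002). Kremen1, a receptor for Dkk antagonists, fell as well (log2 fold change -0.49). Of the 16 feedback genes tested, 3 rose and 2 fell, with a median log2 fold change of 0.32 against 0.00 for all genes. These are 18.8% and 12.5% of the list, and 11.1% of all genes rose and 14.2% fell. The remaining 11 did not pass, among them Lef1 (-0.76 ± 0.48 SE), Sp5 (-0.31 ± 0.56 SE), Znrf3 (0.26 ± 0.18 SE) and Notum (1.87 ± 0.96 SE), and Rnf43 had no count in any of the 6 libraries. With at least 10 counts asked of every library, 2 feedback genes rose and 1 fell, and Axin2 left the test. The rises numbered 4 without VC replicate 3 or without the filter on low counts.

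Receptors and ligands of the pathway fell more often than they rose, and most did not pass. Among 26 core components, 1 rose and 7 fell (median -0.17), beside 11.1% and 14.2% of all genes, and the rise was lost with any single library left out. The receptor Fzd4 was measured at 19.7, 21.5 and 22.6 CPM without VC and 6.54, 5.57 and 3.92 CPM with VC. The groups lay well apart (log2 fold change -1.99 ± 0.19 SE, adjusted p = 3.7e-10). The related receptor Fzd6 fell too (log2 fold change -1.12). Beta-catenin itself, Ctnnb1, was measured at 565, 536 and 588 CPM without VC and 487, 507 and 492 CPM with VC. All 3 VC libraries were lower than the controls, and the difference did not pass the test (log2 fold change -0.18 ± 0.08 SE, adjusted p = 0.11). Of 23 secreted ligands, agonists and antagonists, 4 rose and 7 fell (median -0.39). The rises numbered 2 without control replicate 3 or VC replicate 2, and the falls 4 with at least 10 counts asked of every library. Sostdc1, a secreted inhibitor of the BMP and Wnt pathways, had 8.57, 10.5 and 6.43 CPM without VC and 0.232, 0.178 and 0.168 CPM with VC, which was among the deepest falls of any gene named here (log2 fold change -5.41 ± 0.48 SE, adjusted p = 2.8e-10). Rspo3, the R-spondin that stabilises Wnt receptors, stood at 16.2, 16.7 and 9.71 CPM without VC and 0.579, 2.07 and 1.29 CPM with VC and fell (log2 fold change -3.43 ± 0.28 SE, adjusted p = 6.4e-12). Dkk3 fell from 186 to 57.6 CPM (group means, log2 fold change -1.70). Sfrp2, a decoy for Wnt ligands, rose from 5.32 to 13.8 CPM (log2 fold change 1.38).

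Several feedback genes had a smaller response at day 2 than at day 0. Without doxycycline, VC raised Axin2 from a mean of 0.219 to 30.1 CPM (log2 fold change 7.04), so that the fold change at day 2 was smaller (log2 difference -3.70 ± 0.55 SE, adjusted p = 8.1e-06). At day 2 in WT cells the change was 2.72 and at day 4 in D/KO cells it was 2.50, and neither difference from day 2 in D/KO cells passed the test (adjusted p = 0.37 and 0.28). Nkd1 rose with VC at day 0 (log2 fold change 1.63) and fell at day 2, a difference that passed the test (log2 difference -3.19 ± 0.49 SE, adjusted p = 1.3e-05). Of the 16 feedback genes, 5 had a lower fold change at day 2 than at day 0 and 0 a higher one (7.62% and 6.83% of all genes), and the list median was 1.46 at day 0 and 0.32 at day 2.

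**Figure D2:**
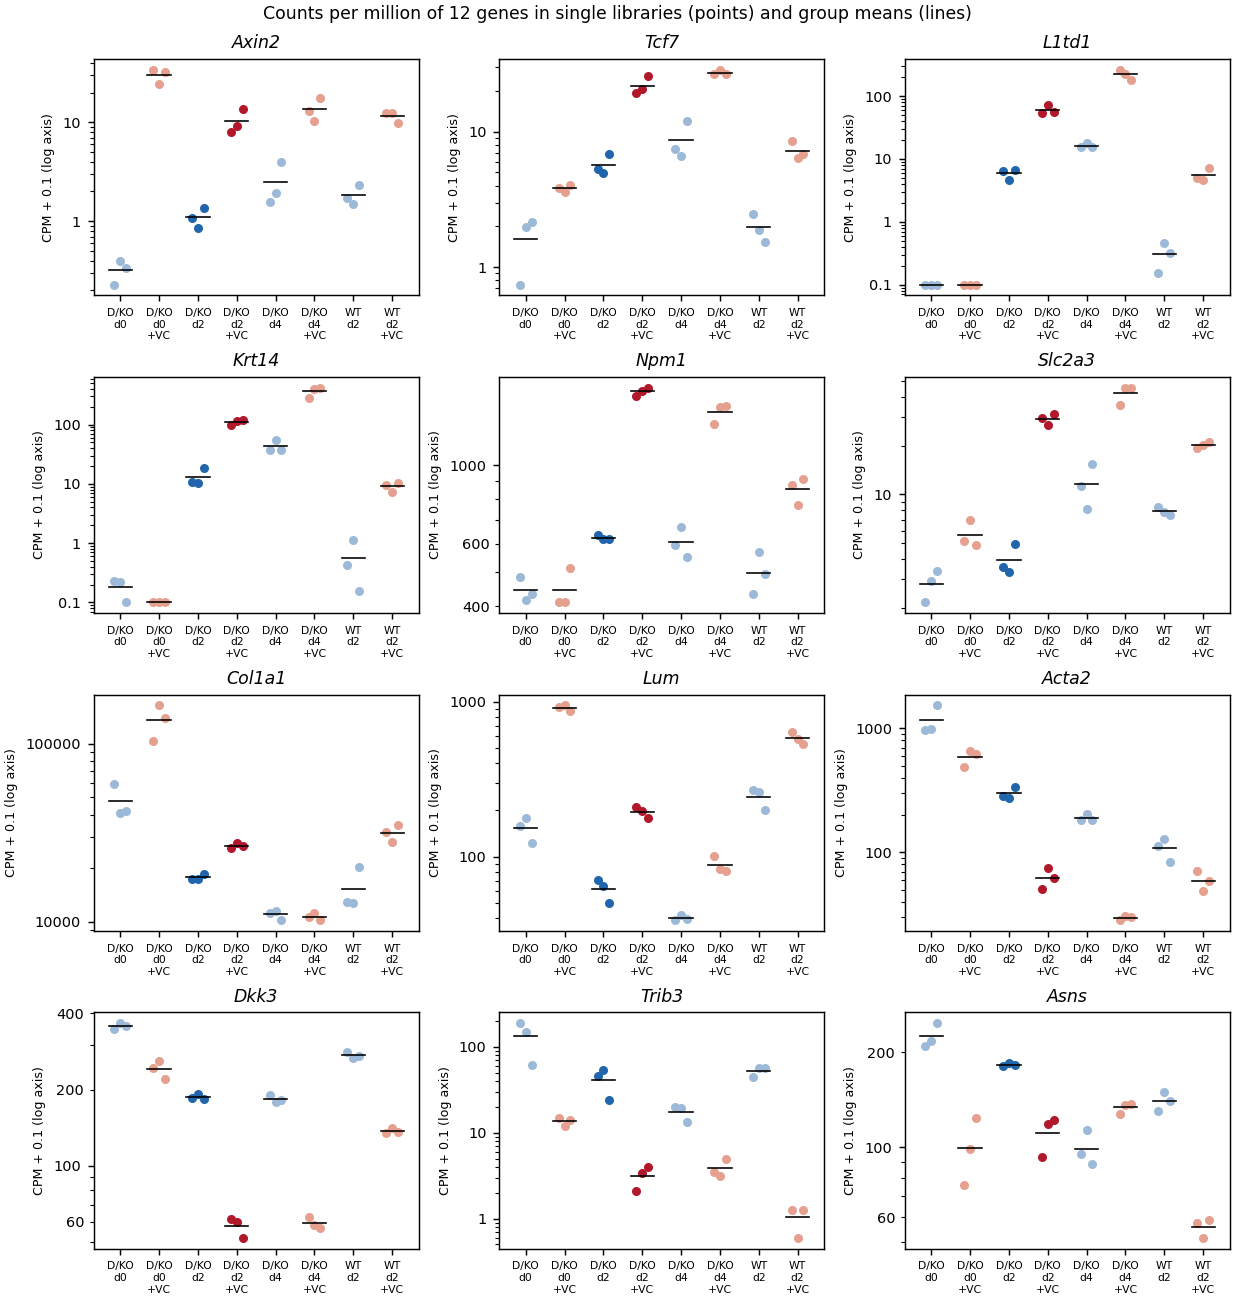
Level of 12 genes (CPM plus 0.1, log axis) in each library of 8 groups, D/KO at days 0, 2 and 4 and WT at day 2, each without and with VC, 3 points a group with the group mean as a line. The dark points are D/KO at day 2, where Axin2, Tcf7, L1td1, Krt14, Npm1, Slc2a3, Col1a1 and Lum sit higher in all 3 VC libraries, and Acta2, Dkk3, Trib3 and Asns sit lower.

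Most transcripts of the enzymes that use ascorbate did not pass the test. P4ha2, a catalytic subunit of the collagen prolyl hydroxylase, was measured at 192, 203 and 227 CPM without VC and 82.2, 95.0 and 113 CPM with VC. All VC libraries lay below the controls (log2 fold change -1.10 ± 0.14 SE, adjusted p = 1e-07). Of 10 collagen hydroxylases, 0 rose and 2 fell (median -0.04), and 1 fell when any 1 control replicate, VC replicate 1 or VC replicate 2 was left out. The lysyl hydroxylase Plod2 overlapped between the groups (-0.11 ± 0.17 SE). Of 15 TET and histone demethylase genes, 1 rose and 2 fell (median -0.13), beside 11.1% and 14.2% of all genes. The rise was lost without control replicate 3, VC replicate 1 or VC replicate 3. The falls numbered 0 without control replicate 1 or 2 or VC replicate 1 or 2, and 1 without either of the other libraries, while a fit of the 6 libraries alone called 2 rises and 4 falls. Tet1 (-0.09 ± 0.39 SE), Tet2 (0.02 ± 0.37 SE) and Kdm3a (0.29 ± 0.17 SE) did not pass. These are transcript levels, and the activity of the enzymes was not measured.

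Hypoxia and glucose genes, the HIF targets whose control depends on dioxygenases of the same family, split by gene. Slc2a3, the glucose transporter GLUT3, lies at chr6:122704768-122778599 (minus strand) and was measured at 3.45, 3.25 and 4.85 CPM without VC and 29.3, 26.5 and 31.1 CPM with VC. All 3 VC libraries lay above the controls, and the level was 7.50-fold higher (log2 fold change 2.91 ± 0.18 SE, adjusted p = 2.5e-14). Ndrg1, a stress-responsive HIF target, stood at 144, 137 and 139.8 CPM without VC and 33.2, 26.3 and 41.5 CPM with VC and fell (log2 fold change -2.06 ± 0.13 SE, adjusted p = 1.5e-14). The angiogenic factor Vegfa fell (log2 fold change -0.73), as did Ankrd37 (-2.66), whose exons overlap genes of the opposite strand and whose counts are therefore uncertain. In all, 5 of 27 rose and 6 fell (median 0.23), beside 11.1% and 14.2% of all genes. The count of rises was 2 without VC replicate 3, 3 without control replicate 1, 8 without the filter on low counts and 12 in a fit of the 6 libraries alone. Ldha (0.33 ± 0.15 SE), Pdk1 (0.23 ± 0.13 SE) and Bnip3 (-0.14 ± 0.19 SE) did not pass. In WT cells 2 genes of the same list rose and 13 fell (median -0.37, beside 13.5% and 13.0% of all genes), and Vegfa fell there as well (log2 fold change -1.81). At day 4 in D/KO cells 16 rose and 5 fell (median 0.49, beside 16.8% and 17.7%). At day 0, 2 rose and 7 fell (median -0.16, beside 12.1% and 14.0%).

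Of the reprogramming factors themselves, Myc alone passed the test. Counts of the 4 factors add the transgene and the endogenous gene. Pou5f1, which encodes Oct4, was measured at 62.2, 68.2 and 76.0 CPM without VC and 111, 86.2 and 98.6 CPM with VC. Sox2 had 94.8, 97.5 and 109.8 CPM without VC and 146, 118 and 143 CPM with VC. Klf4 had 232, 232 and 224 CPM without VC and 305, 255 and 296 CPM with VC. For each of these genes the 3 VC libraries lay above the 3 controls, with log2 fold changes of 0.52 ± 0.25, 0.43 ± 0.21 and 0.32 ± 0.18 (SE), and none passed the test (adjusted p = 0.13, 0.13 and 0.21). Myc was measured at 259, 258 and 244 CPM without VC and 334, 316 and 338 CPM with VC and rose (log2 fold change 0.38 ± 0.11 SE, adjusted p = 0.0074). All 4 factors were called higher in a fit of the 6 libraries alone and in a fit of all 36 libraries without the filter on low counts, 2 were called in a fit of the 18 D/KO libraries, and 1 in each of the other alternative fits. At day 0 the level of Myc fell with VC (log2 fold change -0.84), and the difference between the days passed the test (log2 difference 1.22 ± 0.15 SE, adjusted p = 5.6e-07).

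Among pluripotency genes, L1td1, an RNA-binding protein of pluripotent cells at chr4:98614971-98626717 (plus strand), showed the clearest change. It was measured at 6.44, 4.53 and 6.49 CPM without VC and 54.1, 72.3 and 56.7 CPM with VC. Every VC library lay above every control, and the level was 10.5-fold higher (log2 fold change 3.39 ± 0.20 SE, adjusted p = 5.3e-13). It had no count in any D/KO library at day 0 with or without VC, and reached 262, 228 and 178 CPM with VC at day 4. Cdh1, which encodes E-cadherin, stood at 2.30, 2.38 and 1.31 CPM without VC and 5.33, 6.28 and 6.88 CPM with VC and rose (log2 fold change 1.63 ± 0.26 SE, adjusted p = 2.2e-05), and its mean at day 4 was 3.54 CPM without and 44.3 CPM with VC. The fold change of Cdh1 was smaller at day 2 than at day 4 (log2 difference -2.02 ± 0.36 SE, adjusted p = 0.00036). Klf2 went the other way, at 30.1, 26.6 and 21.9 CPM without VC and 7.24, 7.99 and 6.88 CPM with VC (log2 fold change -1.83 ± 0.20 SE, adjusted p = 1.1e-08). Of 14 genes tested, 6 rose and 1 fell (median 0.74 against 0.00 for all genes), beside 11.1% and 14.2% of all genes. The levels of several were low. With at least 10 counts asked of every library, 2 of the rises were left in the test, and Nanog and Sall4 were below the filter, with at most 0.521 CPM and 0.0579 CPM in any of the 6 libraries.

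Epithelial and keratinocyte genes were called in both directions. Krt14, a keratin of the basal epidermis, lies at chr11:100093988-100098374 (minus strand) and was measured at 10.7, 10.1 and 18.4 CPM without VC and 98.9, 117 and 118 CPM with VC. It rose in all VC libraries (log2 fold change 3.09 ± 0.22 SE, adjusted p = 2.2e-12). Grhl3, a transcription factor of the surface epithelium, had 0.173, 0.116 and 0.164 CPM without VC and 4.28, 2.78 and 3.47 CPM with VC (log2 fold change 4.48 ± 0.56 SE, adjusted p = 1.5e-07). Col17a1, the collagen of hemidesmosomes, rose from 0.882 to 4.33 CPM (log2 fold change 2.28). Krt16, a keratin of the stressed epidermis, fell. It was measured at 64.7, 78.9 and 59.9 CPM without VC and 25.7, 33.0 and 30.4 CPM with VC (log2 fold change -1.19 ± 0.21 SE, adjusted p = 7.1e-05), and the hair and nail keratin Krt84 fell from 21.5 to 5.43 CPM (log2 fold change -1.99). Corneodesmosin, Cdsn, which joins cornified cells, was at 30.9, 32.1 and 33.5 CPM without VC and 2.20, 1.66 and 2.91 CPM with VC and fell in every library (log2 fold change -3.83 ± 0.25 SE, adjusted p = 5.2e-14). Krt18 had 29 counts over the control libraries and none over the VC libraries, which makes it at least 9.54-fold lower against a floor of 3 counts over the group. Of the 20 epithelial genes 6 rose and 3 fell (median 0.30), beside 11.1% and 14.2% of all genes, and with at least 10 counts asked of every library 1 rose and 0 fell. Of 12 keratins 1 rose and 2 fell (median 0.29), and none was called with at least 10 counts asked of every library. Of 10 cornified envelope genes 3 rose and 1 fell (median 0.28), and 1 rose without control replicate 3 or with at least 10 counts asked of every library. The basal keratinocyte markers summed to 565 to 696 CPM without VC and 1321 to 1391 CPM with VC, and 4 of 7 rose and 0 fell (median 0.92), with 2 rises when at least 10 counts were asked of every library. Their part in these values was not tested.

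Some epithelial genes changed more at day 4. Krt8, the simple-epithelium keratin, did not pass at day 2 (0.76 ± 0.35 SE) and had a log2 fold change of 3.96 at day 4, from 8.91 to 139 CPM, a difference between the days that passed the test (log2 difference -3.20 ± 0.44 SE, adjusted p = 8.1e-06). Krt19 showed the same, with -0.49 ± 0.20 SE at day 2 and 3.07 at day 4 (log2 difference -3.56 ± 0.29 SE, adjusted p = 7.9e-11). The median of the epithelial list was 0.30 at day 2 and 2.03 at day 4.

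Most ribosome assembly factors rose. Of 28 tested, 23 rose and 0 fell (11.1% of all genes rose), with a median of 0.68 against 0.00. Npm1, the nucleolar chaperone nucleophosmin, lies at chr11:33102287-33113206 (minus strand) and was measured at 633, 619.9 and 618 CPM without VC and 1571, 1622 and 1654 CPM with VC. The groups lay apart with a narrow spread, 2.59-fold higher with VC (log2 fold change 1.37 ± 0.11 SE, adjusted p = 4.9e-12). Ncl, nucleolin, had 383, 349.6 and 371 CPM without VC and 639, 620.2 and 886 CPM with VC (log2 fold change 0.96 ± 0.14 SE, adjusted p = 3e-06). Fbl, the methyltransferase of ribosomal RNA, rose from 56.9 to 99.0 CPM, Nop56 of the same complex from 52.4 to 102 CPM, and Rrp1b from 17.0 to 34.2 CPM (log2 fold changes 0.80, 0.96 and 1.01). The count stayed between 21 and 25 under the alternative fits and with any single library left out.

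The response of these factors was larger at day 2 than at day 0, which may differ in VC exposure and time in culture as well as in doxycycline. At day 0 the list had a median of -0.13, and Npm1 stood at a mean of 443 CPM without and 445 CPM with VC. The fold change of 23 of the 28 factors was higher at day 2 than at day 0 (6.83% of all genes), Npm1 among them (log2 difference 1.37 ± 0.15 SE, adjusted p = 5e-08). In WT cells at day 2 the median was 0.23, and 11 factors had a higher fold change in D/KO cells (4.03% of all genes), again with Npm1 among them (log2 difference 0.59 ± 0.15 SE, adjusted p = 0.0085). At day 4 the median was 0.72, and no factor had a called difference between the days in edgeR (6.16% of all genes had one in either direction).

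**Figure D3:**
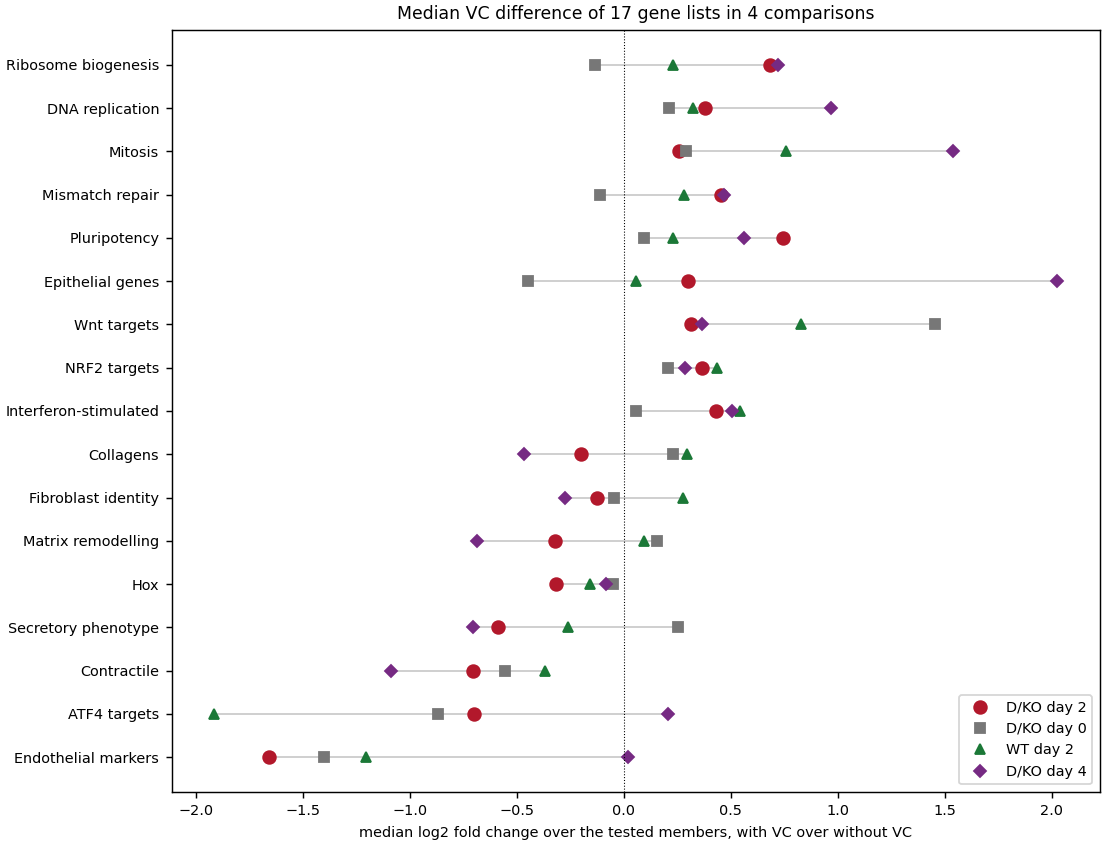
Median log2 fold change with VC over the tested members of 17 gene lists (rows) in 4 comparisons, D/KO at day 2 (circles), D/KO at day 0 (squares), WT at day 2 (triangles) and D/KO at day 4 (diamonds). Ribosome biogenesis is at -0.13 at day 0 and 0.68 at day 2, the ATF4 list is above 0 at day 4 alone, and the epithelial and mitosis lists are highest at day 4.

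More replication genes rose than fell, and most replication and mitotic genes did not pass. Pola1, the catalytic subunit of the polymerase that primes DNA synthesis, was measured at 13.3, 11.7 and 12.4 CPM without VC and 21.7, 25.5 and 30.8 CPM with VC and rose in all VC libraries (log2 fold change 1.06 ± 0.17 SE, adjusted p = 6.6e-06). Pcna, the sliding clamp, had 28.7, 29.3 and 30.9 CPM without VC and 41.9, 44.2 and 37.8 CPM with VC (log2 fold change 0.48 ± 0.14 SE, adjusted p = 0.0076). Ccne1, the cyclin of S phase entry, rose (log2 fold change 0.41), as did the clamp loader subunit Rfc4 (0.95), whose exons overlap Eif4a2 on the opposite strand. Of 38 replication genes 15 rose and 2 fell (median 0.38), where 11.1% of all genes rose and 14.2% fell. The number that rose was 12 to 22 under the alternatives, and the falls numbered 1 without control replicate 1 or VC replicate 1 and 0 when any 1 of the other libraries was left out. Of 29 mitotic genes 4 rose and 0 fell (median 0.26). The rises numbered 1 without control replicate 2 or VC replicate 2, 2 without control replicate 1 or VC replicate 3, 7 without control replicate 3 and 10 in a fit of the 6 libraries alone. Mki67, the proliferation marker, was measured at 32.6, 32.9 and 46.7 CPM without VC and 51.9, 46.6 and 68.1 CPM with VC. The groups overlapped (log2 fold change 0.57 ± 0.25 SE, adjusted p = 0.093). Top2a (0.36 ± 0.14 SE) and Ccnb1 (0.40 ± 0.18 SE) did not pass either. At day 4, Mki67 rose from 19.1 to 102 CPM with VC, and the difference from day 2 passed the test (log2 difference -1.85 ± 0.36 SE, adjusted p = 0.0006). Such a difference was called for 24 of the 29 mitotic genes (3.25% of all genes), and the list median was 1.54 at day 4.

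DNA repair genes were called in both directions, with more rises than falls. Ercc1, the gene deleted in part in these cells, was measured at 9.78, 11.0 and 13.0 CPM without VC and 12, 13.3 and 13.6 CPM with VC, with overlapping groups (log2 fold change 0.20 ± 0.17 SE, adjusted p = 0.42), and its exons overlap Polr1g on the opposite strand. Its counts do not separate the truncated allele from a full transcript. Usp1, the deubiquitinase of the Fanconi pathway, had 126, 122 and 126 CPM without VC and 190.1, 179 and 179 CPM with VC and rose (log2 fold change 0.55 ± 0.09 SE, adjusted p = 2.4e-05). Parp1, the sensor of strand breaks, rose from 77.1 to 109 CPM (log2 fold change 0.49), Xrcc5, the Ku80 subunit, from 25.0 to 37.1 CPM (0.57) and Ercc5, the XPG nuclease, from 34.8 to 52.2 CPM (0.59). Aptx, which removes abortive ligation products, fell (log2 fold change -0.85), and so did Fancc (-0.96), whose exons overlap Aopep on the opposite strand. By pathway, 5 of 35 homologous recombination and Fanconi genes rose and 1 fell, 4 of 8 mismatch repair genes rose and 0 fell, 6 of 28 nucleotide excision repair genes rose and 2 fell, 2 of 21 base excision repair genes rose and 1 fell, and 4 of 13 end joining genes rose and 0 fell. The medians were 0.36, 0.45, 0.17, 0.06 and 0.07. The recombination count was 2 without control replicate 1 or VC replicate 1 and 3 without control replicate 2, control replicate 3 or VC replicate 3, and the mismatch repair count was 1 without VC replicate 3 and 2 without control replicate 2 or 3. Without the filter on low counts these counts were 3 and 1, and in a fit of the 6 libraries alone the recombination count was 9. The falls of the excision repair list were lost without control replicate 2 or VC replicate 1 and numbered 1 without control replicate 1, control replicate 3 or VC replicate 3. The rises are 14.3%, 50.0%, 21.4%, 9.52% and 30.8% of the 5 lists, beside 11.1% of all genes, and 14.2% of all genes fell.

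Genes of the ATF4 programme, which supplies amino acids and one-carbon units and answers amino acid shortage and stress in the endoplasmic reticulum, were mostly lower. Of 18 tested, 0 rose and 12 fell (14.2% of all genes fell), with a median of -0.70. A single rise was called without VC replicate 1 and in several alternative fits. Trib3, the pseudokinase that feeds back on ATF4, lies at chr2:152179342-152185952 (minus strand) and was measured at 45.5, 53.2 and 23.9 CPM without VC and 2.03, 3.32 and 3.86 CPM with VC. All VC libraries lay far below the controls, of which replicate 3 was lowest (log2 fold change -3.73 ± 0.31 SE, adjusted p = 1.2e-11). Aldh1l2, a mitochondrial folate enzyme, had 94.5, 89.1 and 114 CPM without VC and 23.8, 27.5 and 30.6 CPM with VC (log2 fold change -1.86 ± 0.19 SE, adjusted p = 1.4e-09), and its exons overlap Nopchap1 on the opposite strand. Asns, asparagine synthetase, stood at 182, 185 and 182 CPM without VC and 93.4, 118 and 122 CPM with VC (log2 fold change -0.72 ± 0.12 SE, adjusted p = 1.6e-05). The cystine transporter Slc7a11, also a target of NRF2, fell (log2 fold change -1.04), and so did the stress factor Atf3 (-1.55). Psat1 of serine synthesis (0.36 ± 0.14 SE) and Cth of cysteine synthesis (0.03 ± 0.16 SE) did not pass.

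The ATF4 genes were also lower with VC at day 0, where 15 of 18 fell and 0 rose (median -0.87, 14.0% of all genes fell). At day 4 the list median was 0.21, and 11 of the 18 genes had a lower fold change at day 2 than at day 4 (3.25% of all genes). Asns fell at day 2 and rose at day 4 (log2 fold change 0.43), a difference that passed the test (log2 difference -1.15 ± 0.17 SE, adjusted p = 1.2e-05). Psat1 rose at day 4 from 41.0 to 204 CPM (log2 difference -1.96 ± 0.20 SE, adjusted p = 1.6e-08). In WT cells at day 2 the list had a lower median of -1.91, and 11 genes had a higher fold change in D/KO cells (4.03% of all genes). Cth stood at a mean of 10.9 CPM in WT cells without VC and 0.639 CPM with VC, and the difference between the cells passed the test (log2 difference 4.10 ± 0.29 SE, adjusted p = 2.8e-12). Trib3 fell in both (log2 difference 2.09 ± 0.51 SE, adjusted p = 0.0061).

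Promoter letters of the changed groups were read from the 250 bases before the RefSeq start (GRCm38.p6), as a description, for motifs of the factors that are known to act on them. The groups and motifs were chosen with the results known, and both strands were searched. In the sequences below, shown for changed members with a single RefSeq start and a match wholly before it, capitals mark the match and the reading runs 5′ to 3′ toward the start. The shares are of windows of 300 bases, 250 before and 50 after the start. For each list the tested members were read, whether or not they changed, and all genes means every gene with a window, tested here or not. The E-box CACGTG, bound by MYC, was in 6 of 24 ribosome assembly genes with a window (25.0%) and in 8.09% of all 27025 genes. Of the 21 ribosome assembly genes that changed and had a window, 4 held it. Nop2, a ribosomal RNA methyltransferase at chr6:125131633-125131882 (plus strand) that rose (log2 fold change 0.66), holds it 60 bases before the start.
Nop2: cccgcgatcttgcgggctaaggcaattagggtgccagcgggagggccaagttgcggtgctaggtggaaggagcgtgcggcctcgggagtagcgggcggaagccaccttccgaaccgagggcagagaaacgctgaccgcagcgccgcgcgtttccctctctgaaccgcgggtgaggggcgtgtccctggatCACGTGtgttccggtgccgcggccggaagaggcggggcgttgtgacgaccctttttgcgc
The composite site TGATGNAA, bound by ATF4 with C/EBP partners, was in 6 of 15 ATF4 genes (40.0%) and in 4.51% of all genes. Slc7a11 at chr3:50443614-50443863 (minus strand) holds it in both orientations, at 66 and 47 bases before the start. Asns at chr6:7693210-7693459 (minus strand) holds it 23 bases before the start. Pck2, the mitochondrial carboxykinase at chr14:55540016-55540265 (plus strand), holds it on the opposite strand 103 bases before the start, and its transcript fell (log2 fold change -1.46).
Slc7a11: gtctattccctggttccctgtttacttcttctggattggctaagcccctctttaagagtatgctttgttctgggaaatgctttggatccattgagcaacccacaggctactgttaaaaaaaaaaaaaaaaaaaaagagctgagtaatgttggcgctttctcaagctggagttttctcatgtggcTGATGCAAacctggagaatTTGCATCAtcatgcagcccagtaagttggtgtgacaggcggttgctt
Asns: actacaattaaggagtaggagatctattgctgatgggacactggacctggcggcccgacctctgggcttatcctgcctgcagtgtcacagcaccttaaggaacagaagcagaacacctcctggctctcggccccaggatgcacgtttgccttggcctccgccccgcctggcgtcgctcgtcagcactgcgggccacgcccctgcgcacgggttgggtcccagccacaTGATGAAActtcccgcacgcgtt
Pck2: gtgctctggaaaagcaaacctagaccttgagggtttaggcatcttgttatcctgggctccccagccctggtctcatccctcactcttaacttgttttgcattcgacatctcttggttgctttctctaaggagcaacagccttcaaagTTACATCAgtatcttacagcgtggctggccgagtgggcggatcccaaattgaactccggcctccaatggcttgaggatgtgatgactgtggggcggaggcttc
The CArG box, bound by serum response factor, was in 3 of 13 contractile genes (23.1%) and in 1.81% of all genes. These were Myl9, a myosin light chain at chr2:156775214-156775463 (plus strand), Vcl, vinculin, at chr14:20929148-20929397 (plus strand), and Cnn2, a calponin, at chr10:79988350-79988599 (plus strand), which fell with log2 fold changes of -2.07, -0.49 and -0.47. The call of Vcl was lost without control replicate 1 or 3 and without any VC replicate.
Myl9: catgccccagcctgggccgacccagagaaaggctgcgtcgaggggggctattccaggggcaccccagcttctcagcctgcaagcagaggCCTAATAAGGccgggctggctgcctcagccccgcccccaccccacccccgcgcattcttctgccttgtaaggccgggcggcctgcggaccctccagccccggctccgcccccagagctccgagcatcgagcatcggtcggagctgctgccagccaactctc
Vcl: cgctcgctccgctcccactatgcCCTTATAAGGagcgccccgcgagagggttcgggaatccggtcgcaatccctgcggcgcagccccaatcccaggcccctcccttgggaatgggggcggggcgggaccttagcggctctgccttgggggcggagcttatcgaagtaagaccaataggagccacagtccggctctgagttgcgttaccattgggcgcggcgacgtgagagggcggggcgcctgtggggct
Cnn2: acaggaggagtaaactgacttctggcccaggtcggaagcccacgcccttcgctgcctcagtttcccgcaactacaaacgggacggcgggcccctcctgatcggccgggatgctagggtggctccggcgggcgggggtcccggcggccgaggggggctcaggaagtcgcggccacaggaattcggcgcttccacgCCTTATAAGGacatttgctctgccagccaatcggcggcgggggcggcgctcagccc
The TCF/LEF letters CTTTGAT or CTTTGTT were in 2 of 9 Wnt feedback genes with a window and in 10.6% of all genes, and in none of the 3 changed feedback genes that had a window. That says only that these letters are not in the 300 bases read. No binding was measured, and a match is not a site.

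The contractile programme was lower almost throughout. Of 16 tested genes 0 rose and 13 fell (14.2% of all genes fell), with a median of -0.70, and 10 to 13 fell under the alternatives. Acta2, smooth muscle actin, the mark of activated fibroblasts, lies at chr19:34218490-34232990 (minus strand) and was measured at 286, 275 and 339 CPM without VC and 50.5, 74.1 and 62.1 CPM with VC. All 3 VC libraries lay far below the controls (log2 fold change -2.27 ± 0.17 SE, adjusted p = 1.3e-12). Myh11, smooth muscle myosin, had 14.3, 11.7 and 20.0 CPM without VC and 0.289, 0.237 and 1.51 CPM with VC (log2 fold change -4.46 ± 0.49 SE, adjusted p = 7e-09). Cnn1, a calponin of smooth muscle, had 18.3, 18.5 and 29.3 CPM without VC and 2.08, 3.79 and 4.03 CPM with VC (log2 fold change -2.74 ± 0.31 SE, adjusted p = 1.6e-08). The intermediate filament Des fell (log2 fold change -2.38), and Tagln fell from 2.10 to 0.607 CPM (-1.76), with exons that overlap genes of the opposite strand. For Acta2 the fold change was deeper at day 2 in D/KO cells than at day 0 (log2 difference -1.28 ± 0.23 SE, adjusted p = 0.00014) or in WT cells (log2 difference -1.40 ± 0.23 SE, adjusted p = 7.8e-05). The difference from day 4 did not pass (adjusted p = 0.42).

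Endothelial markers fell beside these genes. Of 8 markers 1 rose and 7 fell (median -1.66), beside 11.1% and 14.2% of all genes, and with at least 10 counts asked of every library 0 rose and 1 fell. Kdr, the VEGF receptor, was measured at 32.5, 29.5 and 35.3 CPM without VC and 7.35, 4.68 and 6.04 CPM with VC (log2 fold change -2.43 ± 0.24 SE, adjusted p = 7e-09). Egfl7, an endothelial matrix protein, fell as well (log2 fold change -2.27), with exons that overlap Agpat2 on the opposite strand, and Vwf rose from 0.544 to 2.20 CPM (2.00). Cldn5, Mcam and Plvap are not in the marker list and were named for the size or the p-value of their fall over all genes. Cldn5, the tight junction claudin of endothelium, had 21.4, 20.2 and 14.3 CPM without VC and 1.10, 0.829 and 1.34 CPM with VC (log2 fold change -4.08 ± 0.35 SE, adjusted p = 1.2e-10). Mcam, an adhesion molecule of endothelium and pericytes, had 45.9, 40.4 and 49.8 CPM without VC and 4.23, 2.25 and 4.03 CPM with VC (log2 fold change -3.69 ± 0.21 SE, adjusted p = 3.2e-15), and Plvap, the diaphragm protein of fenestrae, fell (log2 fold change -2.87). Summed endothelial markers at day 0 were 804 to 896 CPM without and 308 to 358 CPM with VC, and at day 4 they were 397 to 443 CPM without and 575 to 802 CPM with VC. In WT cells at day 2, where the sum was 62.3 to 67.7 CPM without and 95.7 to 102 CPM with VC and Kdr and Tie1 had no count with VC, 7 of the 16 contractile genes fell and 2 rose (median -0.37, 13.0% of all genes fell). At day 4 in D/KO cells, where the endothelial sum was higher with VC, 13 of the 16 fell and 0 rose (median -1.09, 17.7% of all genes fell), and at day 0 10 fell and 0 rose (median -0.56). The calls of single endothelial markers did not follow the sum at day 4 or in WT cells. Of the 8 markers, 2 rose and 2 fell at day 4 (median 0.02, beside 16.8% and 17.7% of all genes). In WT cells at day 2, 1 rose and 1 fell (median -1.20, beside 13.5% and 13.0%). At day 0, 1 rose and 7 fell (median -1.40, beside 12.1% and 14.0%). The part of vessel cells in the fall of the contractile genes was not tested.

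**Figure D4:**
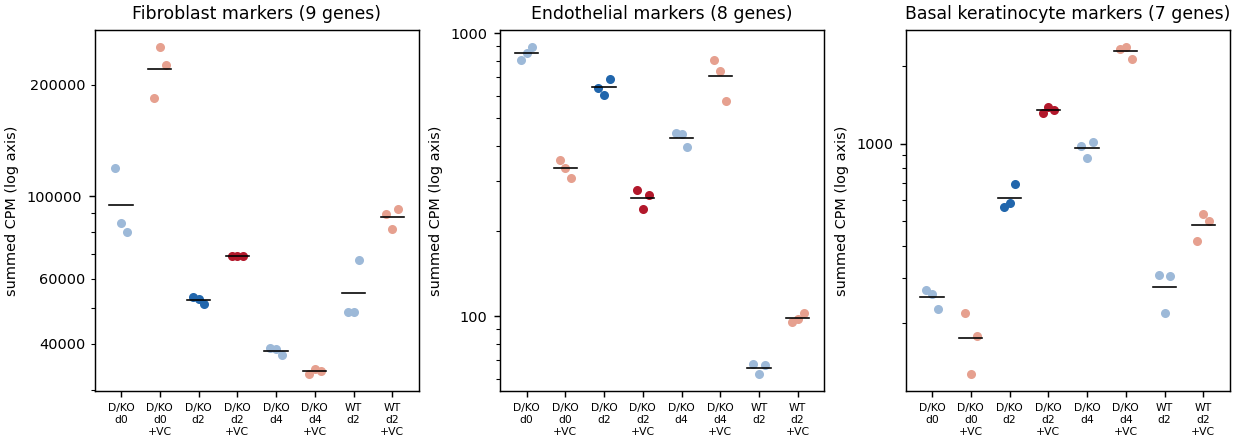
Summed CPM (log axis) of the fibroblast, endothelial and basal keratinocyte markers in each library of 8 groups, 3 points a group with the group mean as a line. At day 2 in D/KO cells (dark points) the endothelial sum is lower with VC and the other sums are higher, and at day 4 the endothelial sum is higher with VC.

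The fibroblast identity genes split. Of 24 tested 7 rose and 7 fell (median -0.13), the latter 4 without VC replicate 3, where 11.1% of all genes rose and 14.2% fell. Lum, the proteoglycan lumican, was measured at 70.4, 64.5 and 50.0 CPM without VC and 208, 198 and 179 CPM with VC and rose (log2 fold change 1.66 ± 0.13 SE, adjusted p = 7.8e-12). Dcn, decorin, had 623, 614 and 383 CPM without VC and 1254, 1172 and 1051 CPM with VC (log2 fold change 1.10 ± 0.17 SE, adjusted p = 6.6e-06), and the peptidase Mme rose (log2 fold change 1.53). Fn1, fibronectin, had 8129.8, 8588 and 9733 CPM without VC and 4703, 4241 and 3949 CPM with VC and fell (log2 fold change -1.04 ± 0.16 SE, adjusted p = 2.9e-06). The receptor Pdgfrb, the transcription factor Zeb1 of mesenchymal cells and the homeobox gene Meox1 fell (log2 fold changes -0.53, -0.47 and -2.59). Pdgfra (-0.24 ± 0.12 SE), Snai2 (-0.22 ± 0.11 SE) and Thy1 (-0.10 ± 0.12 SE) did not pass.

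Collagen genes also moved both ways. Col1a1, the main chain of type I collagen, was measured at 17391, 17443 and 18460.5 CPM without VC and 25810.2, 27868 and 26749.7 CPM with VC and rose (log2 fold change 0.59 ± 0.16 SE, adjusted p = 0.0045), at the locus that hosts the cassette. Col1a2, its partner chain, had 13869, 13402 and 13743 CPM without VC and 17346, 16235 and 16978 CPM with VC, a difference that did not pass (log2 fold change 0.30 ± 0.14 SE, adjusted p = 0.1). Col15a1, a basement membrane collagen, had 367, 378 and 362 CPM without VC and 77.0, 52.0 and 60.6 CPM with VC and fell (log2 fold change -2.55 ± 0.15 SE, adjusted p = 4e-15). Col11a1 rose (log2 fold change 0.71), Col8a2 fell (-2.90), and Col3a1 overlapped between groups (-0.11 ± 0.17 SE). Of 22 collagens 7 rose and 9 fell (median -0.20), beside 11.1% and 14.2% of all genes. The rises numbered 3 without control replicate 1 and 4 without control replicate 2 or VC replicate 1. Compared with day 0, 13 collagens had a lower fold change at day 2 and 1 a higher one (7.62% and 6.83% of all genes). At day 0, Col1a1 rose from 47567 to 135935 CPM (log2 difference -0.92 ± 0.22 SE, adjusted p = 0.0037). Col15a1 fell at day 0 too (log2 fold change -3.62) and had 0.18 in WT cells (log2 difference -2.72 ± 0.20 SE, adjusted p = 8.3e-12).

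Matrix remodelling and secretory genes fell more often than they rose. Of 32 matrix genes 5 rose and 14 fell (median -0.32), where 11.1% of all genes rose and 14.2% fell. Mmp13, a collagenase, was measured at 96.7, 86.3 and 109.8 CPM without VC and 31.3, 24.5 and 34.1 CPM with VC (log2 fold change -1.70 ± 0.18 SE, adjusted p = 6.1e-09). Eln, elastin, had 342, 355 and 207 CPM without VC and 155, 109.7 and 54.3 CPM with VC (log2 fold change -1.50 ± 0.30 SE, adjusted p = 0.00023), with control replicate 3 lowest of its group. Postn, periostin, rose from 223 to 423 CPM (log2 fold change 0.92), and the fibrillin Fbn2 rose (1.44). Of 24 genes of the senescence-associated secretory phenotype 2 rose and 12 fell (median -0.59), and 5 rose without the filter on low counts or in a fit of the 6 libraries alone. Igfbp5, a binding protein of insulin-like growth factors, had 839, 841 and 719 CPM without VC and 507, 373 and 339 CPM with VC (log2 fold change -0.98 ± 0.18 SE, adjusted p = 7e-05). The growth factor Hgf fell (log2 fold change -1.82), and so did the chemokine Cxcl15 (-2.08). Lif, the cytokine that sustains mouse stem cells, rose (log2 fold change 1.92), and the chemokine Ccl8 rose (1.24). Il6 was below the filter. The day 0 medians of the matrix and secretory lists were 0.15 and 0.26. Compared with day 0, 15 of 32 matrix genes and 13 of 24 secretory genes had a lower fold change at day 2 (7.62% of all genes).

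Targets of TGF-beta did not fall together. Of 12 tested 2 rose and 3 fell (median -0.21), beside 11.1% and 14.2% of all genes, and 5 fell in a fit of the 6 libraries alone. Itga11, a collagen-binding integrin, was measured at 103, 105 and 113 CPM without VC and 54.7, 42.4 and 42.1 CPM with VC and fell (log2 fold change -1.20 ± 0.15 SE, adjusted p = 1.3e-07). Tgfbi rose (log2 fold change 0.38). Ccn2 overlapped between the groups (-0.15 ± 0.17 SE) and fell at day 4 (log2 fold change -1.76).

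Growth arrest, stress and inflammation genes gave small or mixed changes. Cdkn1a, the p21 inhibitor and a p53 target, was measured at 566, 592 and 522 CPM without VC and 816, 860.4 and 794 CPM with VC and rose (log2 fold change 0.56 ± 0.10 SE, adjusted p = 4.4e-05). Mdm2 and Btg2, also p53 targets, rose (log2 fold changes 0.55 and 1.02), whereas Gadd45a fell (-1.34), with exons that overlap a gene of the opposite strand. The inhibitors Cdkn2a (-0.10 ± 0.15 SE) and Cdkn2b (-0.28 ± 0.14 SE) did not pass and their groups overlapped. Of 25 genes of this list 7 rose and 5 fell (median 0.14), where 11.1% of all genes rose and 14.2% fell. The rises numbered 4 without VC replicate 2, and the falls 1 without control replicate 1 and 2 without control replicate 2, VC replicate 2 or VC replicate 3. Of 16 NRF2 targets 6 rose and 1 fell (median 0.37, 37.5% and 6.25% of the list), with Nqo1, a quinone reductase, at 25.1, 27.5 and 38.3 CPM without VC and 51.5, 56.3 and 67.9 CPM with VC (log2 fold change 0.95 ± 0.17 SE, adjusted p = 6.1e-05). Of 29 interferon genes 3 rose and 0 fell (median 0.43), and the rises are 10.3% of the list beside 11.1% of all genes, while 11 rose and 1 fell without the filter on low counts, and 5 rose and 3 fell in a fit of the 6 libraries alone. Oas2, an antiviral synthetase, had 0.518, 0.870 and 0.436 CPM without VC and 6.66, 10.2 and 2.13 CPM with VC (log2 fold change 3.37 ± 0.71 SE, adjusted p = 0.00039), and Isg15 was spread within both groups, at 0.805, 3.95 and 3.49 CPM without VC and 2.43, 8.76 and 0.504 CPM with VC. Of 15 complement genes 6 rose and 0 fell (40.0% of the list rose, median -0.13, with 9 of 15 fold changes below 0), with C1s1, a protease of the classical pathway, at 98.2, 94.8 and 68.6 CPM without VC and 248, 183 and 189.8 CPM with VC (log2 fold change 1.25 ± 0.19 SE, adjusted p = 5.6e-06). Of 14 immediate early genes 7 rose and 4 fell (50.0% and 28.6%, median 0.64). The rises numbered 3 without control replicate 3 or VC replicate 1, and Jund fell (log2 fold change -1.17) while Egr2 rose (1.00).

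Several of the strongest single changes belonged to none of these groups. Agtr1a, the angiotensin II receptor, was measured at 23.5, 23.3 and 22.8 CPM without VC and 145, 131 and 112 CPM with VC (log2 fold change 2.48 ± 0.16 SE, adjusted p = 4.9e-14). Its fold change was higher than at day 0 (log2 difference 2.88 ± 0.24 SE, adjusted p = 1.7e-10) and than in WT cells (log2 difference 2.83 ± 0.22 SE, adjusted p = 3.2e-11), where its log2 fold changes were -0.40 and -0.35. Tnn, the matrix protein tenascin N, at chr1:159912599-159981150 (minus strand), had 16.4, 16.2 and 21.6 CPM without VC and 132, 124 and 145 CPM with VC (log2 fold change 2.88 ± 0.16 SE, adjusted p = 1.3e-15). In WT cells it stood at 20.7, 18.2 and 21.5 CPM without and 22.6, 16.2 and 21.3 CPM with VC, and the difference between the cells passed the test (log2 difference 2.89 ± 0.22 SE, adjusted p = 1.6e-11). The dipeptidase Dpep1, the carboxypeptidase-like Cpxm1, the carboxylesterase Ces1f and the lectin Clec2g rose (log2 fold changes 2.73, 2.43, 3.63 and 3.78). Ccdc3, a secreted protein, was measured at 38.6, 40.0 and 37.0 CPM without VC and 4.17, 5.86 and 4.20 CPM with VC (log2 fold change -3.02 ± 0.16 SE, adjusted p = 4.2e-16). Trim66 and the neural adhesion molecule L1cam fell (-4.43 and -3.58). These genes were lower with VC in every comparison examined, with log2 fold changes of -2.81, -5.12 and -4.04 for Trim66 and -3.11, -3.17 and -2.53 for L1cam at day 0, in WT cells and at day 4.

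Across all genes, the response at day 2 shared more calls with day 4 than with the other comparisons, none of which used the same libraries. Of the 1753 genes higher with VC at day 2, 1118 were also higher at day 4 (63.8% of the day 2 genes and 42.0% of the day 4 genes, where 16.8% of all genes were higher), 803 in WT cells at day 2 (45.8% and 37.5%, against 13.5%) and 562 at day 0 (32.1% and 29.3%, against 12.1%). Of the 2252 lower genes, 1542 were also lower at day 4 (68.5% and 54.9%, against 17.7%), 843 in WT cells (37.4% and 40.8%, against 13.0%) and 1081 at day 0 (48.0% and 48.7%, against 14.0%). Genes called in opposite directions at days 2 and 4 numbered 42 and 61. Across the 15832 genes, which are not independent replicates, Pearson's r of the log2 fold changes was 0.50 with day 4, 0.37 with WT cells and 0.36 with day 0, as a description. The fold change itself differed from that at day 0 for 1082 genes upward and 1206 downward, from that in WT cells for 638 and 1086 (4.03% and 6.86%), and from that at day 4 for 461 and 514 (2.91% and 3.25%).

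The change with VC was also set beside the course of reprogramming without VC, from day 0 to day 4 in D/KO cells, which used none of the same libraries. Of the 1753 genes higher with VC, 618 rose from day 0 to day 4 (35.3% of the VC genes and 21.4% of the day 4 genes, where 18.3% of all genes rose) and 244 fell (13.9% and 8.22%, against 18.7%). Of the 2252 genes lower with VC, 996 fell (44.2% and 33.6%, against 18.7%) and 417 rose (18.5% and 14.4%, against 18.3%). Krt14, L1td1 and Agtr1a belonged to the first group, with log2 fold changes from day 0 to day 4 of 8.94, 11.15 and 2.67, although L1td1 was at 0 at day 0 and its value depends on the prior count. Acta2, Cdsn and Mcam fell in both (-2.61, -3.35 and -2.72). Col1a1, Lum and Tnn rose with VC and fell from day 0 to day 4 (-2.11, -1.93 and -2.51), and Sostdc1 and Eln fell with VC and rose over the course (6.10 and 6.78). In a principal component analysis of the 500 most variable genes over the 18 D/KO libraries, the first component (77.9% of the variance) ordered the days and the second (10.5%) separated the libraries with VC from those without at each day. On the first component the day 2 libraries without VC had a mean of -8.51, those with VC -24.6, and the day 4 libraries without VC -30.8. The day 4 libraries with VC had -51.6. At day 0 the means were 55.0 without and 60.5 with VC, a shift in the other direction. Across all tested genes, Pearson's r between the change with VC at day 2 and the course without VC was 0.23, as a description.

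**Figure D5:**
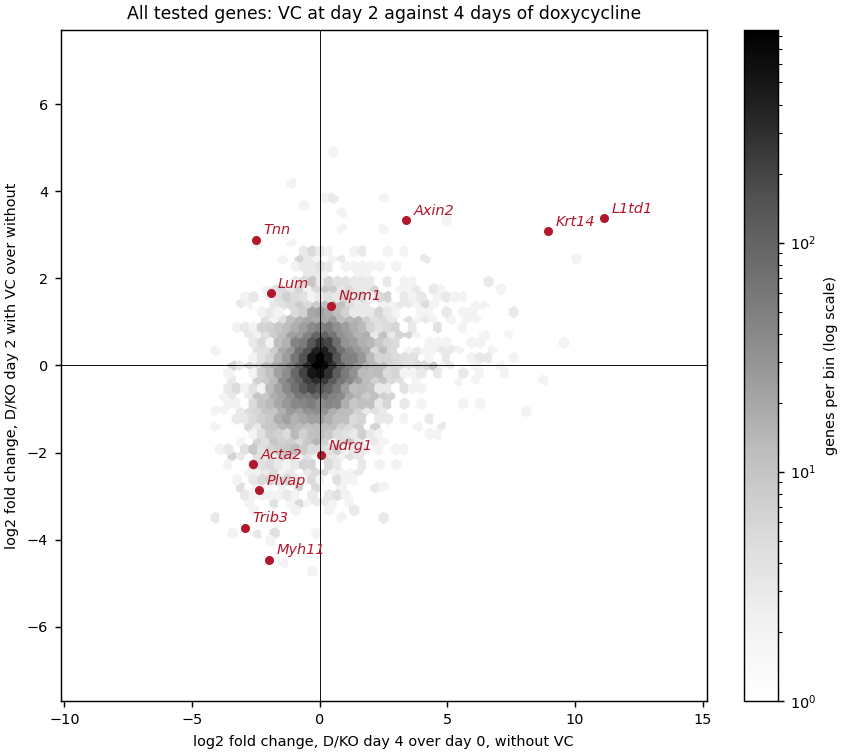
Log2 fold change from day 0 to day 4 without VC (horizontal axis) and with VC at day 2 (vertical axis) in D/KO cells for all 15832 tested genes, shaded by the number of genes in a bin, with 11 named genes marked. Axin2, Krt14 and L1td1 lie to the upper right, Acta2, Trib3, Plvap and Myh11 to the lower left, and Tnn and Lum to the upper left.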

How the data were processed

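RNA was sequenced from 36 libraries in 12 groups of 3, which cross the cell line, the day of doxycycline (0, 2 or 4) and VC, and 24 libraries of another table of the series were not used here. The table used holds unnormalized read counts for each gene as deposited. The authors ran FastQC, Trim Galore, HISAT2 (to GRCm39) and featureCounts on paired-end reads. Versions, annotation release, strandedness and the treatment of multi-mapping reads are not given in the sources used here, so counts of genes with overlapping exons are uncertain. Symbols came from GENCODE M39, and coordinates from the deposited table.

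After TMM scaling, counts were tested in R 4.3.3 with the quasi-likelihood F-test of edgeR 4.0.16 (two-sided) on 15832 genes kept by filterByExpr (minimum count 10, minimum total 15), in 1 fit of 36 libraries and 12 groups, with Benjamini-Hochberg adjustment over all tested genes. The common biological coefficient of variation was 0.132. The SE of a log2 fold change is its size divided by the square root of F. Differences between VC responses were tested as contrasts of the same fit. CPM values are scaled by TMM. Over genes with a mean of at least 30 counts in a pair of libraries, the variance between replicates was 3.30 to 12.5 times that of counting noise (6 pairs), so depth was not the limit for such genes. The fit was also run on simulated counts, and the outcome is not reported here. Alternatives used DESeq2 1.42.0, other filters, size factors, thresholds and sets of libraries.

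The comparison, the 44 gene lists (9 of them marker lists, 828 symbols, 3 of them not matched) and the motifs were chosen with earlier results of these data known, so no p-value is given over a list. Named genes were the key members of the lists, the 2 strongest called rises and falls of each list, the 8 largest changes in each direction and the 5 smallest p-values among coding genes of at least 5 CPM, and the 3 largest differences in each direction between VC responses. Nop2, Pck2, Myl9, Vcl and Cnn2 were named for their promoter letters. Genes that the rule names and the text leaves out are not reported here.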

Additional observations from a re-analysis of the deposited data

Results flagged for a closer look

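The response to VC at day 2 in D/KO cells differed from other VC responses, each by a test of the difference itself in edgeR. Against VC without doxycycline, 1082 genes had a higher and 1206 a lower log2 fold change at day 2. Against WT cells at day 2 the numbers were 638 and 1086, and against day 4 in D/KO cells 461 and 514. Each number is of 15832 genes tested, and all values below are log2 differences, day 2 in D/KO cells minus the other response.

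Against day 0, the largest differences among these coding genes were -5.70 for Cyp4f39, -5.12 for Fam180a and -4.92 for Gna14 downward, and 5.10 for Tenm4, 4.71 for Atp2a3 and 4.14 for Crym upward. The mean levels of Cyp4f39, Fam180a and Gna14 were higher with VC than without at day 2. Atp2a3 did not pass at day 2 (log2 fold change 0.14). Among genes described above they were -3.70 for Axin2, -3.19 for Nkd1, -1.28 for Acta2, -0.92 for Col1a1, 2.88 for Agtr1a, 1.37 for Npm1 and 1.22 for Myc.

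Against WT cells, where genotype, sex, age and line cannot be told apart, the largest were -4.51 for Gcnt3, -4.27 for Adgrl4 and -3.55 for Mmrn2 downward, and 4.10 for Cth, 3.04 for Wwc1 and 2.89 for Tnn upward. In D/KO cells at day 2, the mean level of Gcnt3 was higher with VC, and those of Adgrl4 and Mmrn2 were lower. Adgrl4 and Mmrn2 are known from endothelium, and the endothelial marker sum without VC was 603 to 689 CPM in D/KO cells and 62.3 to 67.7 CPM in WT cells. The part of endothelial cells in these differences was not tested. Among other genes described above the differences were -2.72 for Col15a1, -1.40 for Acta2, 0.59 for Npm1, 2.09 for Trib3 and 2.83 for Agtr1a.

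Against day 4, differences among the largest were -4.78 for Avil, whose exons overlap Tsfm, -3.56 for Krt19 and -3.44 for Myo1g downward, and 3.13 for Penk and 2.86 for Myoc upward. Krt8 (-3.20), Cdh1 (-2.02), Psat1 (-1.96), Mki67 (-1.85), Hoxd8 (-2.55) and Asns (-1.15) also had a lower fold change at day 2.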

How the results depend on the processing

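The counts of genes higher and lower with VC, the counts of differences from the other VC responses and the counts shared with the course from day 0 to day 4 stayed within 1.5 times under DESeq2, other size factors, other filters, fewer libraries and centring. When a log2 change of 1 or more in size was also asked, 457 genes were higher and 791 lower with VC. The differences then numbered 331 and 512 against day 0, 270 and 407 against WT cells, and 208 upward against day 4, and the shared genes 194 upward and 336 downward. Leaving out 1 library at a time gave 1337 to 1486 higher and 1808 to 1916 lower genes. The differences then numbered 827 to 1068 and 947 to 1218 against day 0, 432 to 601 and 787 to 1056 against WT cells, and 355 to 547 and 387 to 590 against day 4, and the shared genes 494 to 637 and 849 to 957. Of 127 named genes past the threshold, 127 kept their direction in every alternative. Genes that had not passed changed sign when 1 library was left out, with these lowest and highest log2 fold changes: Bnip3 -0.38 to 0.025, Ccn2 -0.36 to 0.10, Cth -0.0098 to 0.099, Hoxa13 -0.0026 to 0.13, Isg15 -0.91 to 1.02, Myo1g -0.16 to 0.92, Plod2 -0.23 to 0.044, Tet1 -0.22 to 0.17, Tet2 -0.20 to 0.24. The cause was not tested. No paired analysis was possible because the labels give no replicate numbers shared between the groups, and replicates were numbered in accession order. Genes with few counts, such as Gdf3, Cldn3 or Krt18, left the test under the stricter filter. The study is 1 cell line with 3 libraries a group.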

Other observations

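Among genes of positional identity, of 33 Hox genes 0 rose and 7 fell with VC at day 2 (median -0.32), where 11.1% of all genes rose and 14.2% fell, and 4 fell with at least 10 counts asked of every library. DESeq2 and a fit of the 6 libraries alone each called 3 rises. Hoxd8 was measured at 13.5, 11.4 and 11.8 CPM without VC and 3.82, 2.90 and 2.69 CPM with VC (log2 fold change -1.96 ± 0.29 SE, adjusted p = 2.6e-06), with 0.59 on the log2 scale at day 4, a difference that passed the test (log2 difference -2.55 ± 0.39 SE, adjusted p = 2.8e-05). Hoxb13, a gene of the tail, had 43.8, 42.3 and 40.7 CPM without VC and 25.5, 30.4 and 27.5 CPM with VC (log2 fold change -0.60 ± 0.12 SE, adjusted p = 0.00026). Hoxa13 overlapped between the groups (0.06 ± 0.12 SE). Of 8 BMP targets 2 rose and 2 fell (median 0.07, 1 rose without control replicate 1, 4 rose without the filter on low counts, and 1 fell without control replicate 3 or VC replicate 2), with Id2 higher (log2 fold change 0.75) and Id4 lower (-0.74). Of 31 sterol and fatty acid genes 5 rose and 1 fell (median -0.00), with 3 rises and 0 falls without control replicate 2, 4 rises and 0 falls without VC replicate 3, and 8 rises and 5 falls in a fit of the 6 libraries alone. Elovl6, a fatty acid elongase, had 37.0, 35.0 and 36.9 CPM without VC and 73.1, 63.2 and 65.4 CPM with VC (log2 fold change 0.89 ± 0.14 SE, adjusted p = 9.8e-06). Of 8 genes of DNA methylation 0 rose and 1 fell (median -0.05), the fall was lost when any 1 control replicate, VC replicate 1 or VC replicate 2 was left out, 1 rose without control replicate 3 and 2 in a fit of the 6 libraries alone, and Dnmt1 did not pass (0.27 ± 0.13 SE).

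The summed markers of further lineages were low. Cartilage and bone markers summed to 122 to 145 CPM without and 50.7 to 56.0 CPM with VC. Of 6 tested 1 rose and 2 fell (median 0.41), beside 11.1% and 14.2% of all genes. The rises numbered 2 without control replicate 3 or VC replicate 2, and 0 with at least 10 counts asked of every library. The fall of the sum lay in Comp and Sox9. Comp, a matrix protein of cartilage and tendon, was measured at 77.9, 85.1 and 84.0 CPM without VC and 17.1, 14.8 and 17.2 CPM with VC (log2 fold change -2.33 ± 0.18 SE, adjusted p = 2.2e-12), and Sox9, the factor of cartilage, had 18.4, 19.3 and 23.1 CPM without VC and 5.62, 6.57 and 3.75 CPM with VC (log2 fold change -1.93 ± 0.19 SE, adjusted p = 9.8e-10), whereas Col2a1 rose (log2 fold change 1.62). Adipocyte markers summed to 35.0 to 42.3 CPM without and 12.1 to 13.4 CPM with VC, with Adipoq, Cfd, Lep and Plin1 at 0 in both groups, and Fabp4, which vessels also express, fell (log2 fold change -3.54). Muscle markers summed to 30.9 to 49.6 CPM without and 8.97 to 12.4 CPM with VC, with Ckm, Myf5, Myod1 and Myog at 0. Melanocyte markers summed to 10.7 to 11.7 CPM without and 4.20 to 5.43 CPM with VC, with Dct, Mlana, Tyr and Tyrp1 at 0, and Schwann markers to 9.43 to 12.4 CPM without and 4.81 to 6.81 CPM with VC. Immune markers summed to 14.4 to 18.5 CPM without and 13.0 to 15.9 CPM with VC, with Cd3e at 0 in both groups and Ptprc at 0 with VC.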
